A study of Mus musculus with 4 samples.

Results

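The primordia of the esophagus and the intestine, the anterior and the posterior end of the gut tube sampled in this series, were compared gene by gene at E11.5 (days of embryonic development). A gene entered the comparison when at least 1 of its probes was well above background on either array. This held for 14474 of the 17016 genes that could be named on the array, and a fold could be given for 13909 of them. At least 2-fold higher in esophagus were 1665 genes, and at least 2-fold higher in intestine were 1208. Both samples were total RNA of ICR mouse embryos, an outbred stock, with no treatment and no altered allele, and plug day counted as day 0.5. Each organ was hybridised once in 1 colour, Cy3, so the comparison rests on 2 of the 4 arrays of the series. How many embryos went into a sample and which stretch of the intestine was taken are not given in the sources used here, and the extraction protocol of every sample names the stomach. With 1 array a side no test could be made, no p-value is given, and the number of arrays limits the precision.

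The gut tube is an endodermal epithelium inside a sleeve of mesoderm. Its front part, which expresses Sox2, forms the esophagus, trachea, lungs and stomach, and its rear part, which expresses Cdx2, forms the intestine. The epithelium of the esophagus becomes stratified, with p63 and basal keratins, whereas that of the intestine stays a single layer and acquires a brush border. Hox genes are arranged in 4 clusters, and genes at one end of a cluster, with high paralog numbers, are used towards the tail. The mesoderm gives smooth muscle, and its regional transcription factors signal back to the epithelium. In a dissected whole primordium, a smaller share of cells of a type and less RNA per cell cannot be told apart.

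Levels below are log2 signals relative to the 75th percentile of the same array, so a level of 0 is a probe as bright as that percentile, and a difference of 1 is a factor of 2. Levels of different genes come from different probes and are not set against each other. The esophagus array had 69.3% of its spots well above background and the intestine array 74.0%, and their 75th percentile signals were 379 and 989. The lowest level well above background was −5.75 in esophagus and −6.92 in intestine. A gene that was not well above background on one array entered there at no less than that array's lowest level, which makes its fold a lower bound, written "at least". The median difference over all 13909 genes was −0.13 (log2, esophagus minus intestine), and Pearson's r of the levels across genes, which are not independent replicates, was 0.931. All 4 arrays shared 1 slide and 1 scan, and no spot was saturated. Copies of a probe within an array had a median SD of 0.09 (log2) in esophagus and 0.07 in intestine, which is the only measured error of a level and leaves out dissection, RNA and labelling.

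**Figure D1:**
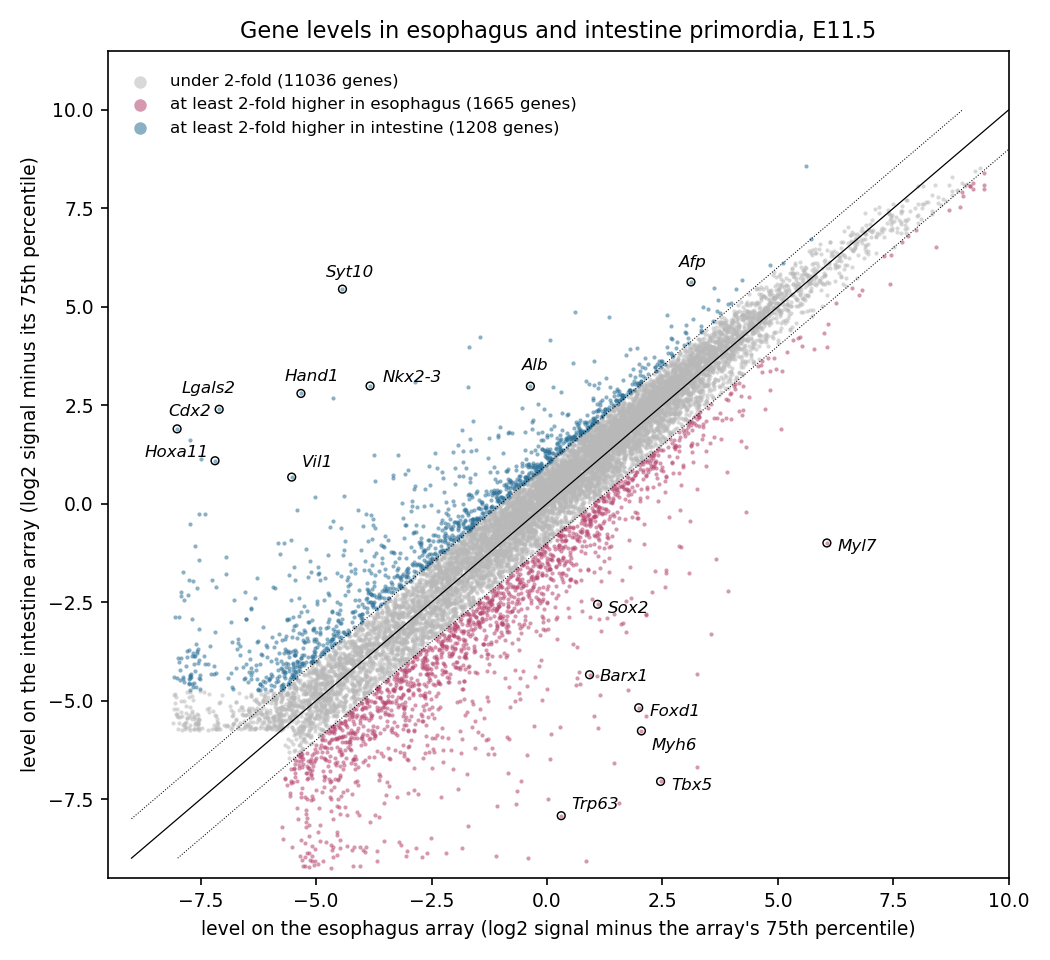
Level of each of 13909 genes on the intestine array (y axis, log2 signal relative to the array's 75th percentile) against its level on the esophagus array (x axis, same unit). Coloured points are at least 2-fold apart, the solid line marks equal levels and the dotted lines 2-fold. Grey points outside the dotted lines were not well above background on one array and their bound was under 2-fold. Most genes lie along the diagonal, with Myl7, Trp63 and Tbx5 far to the right of it and Cdx2, Hand1, Syt10 and Lgals2 far above it.

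The labels were checked against defining markers. Sox2, the transcription factor of the foregut endoderm, stood at 1.09 in esophagus and −2.56 in intestine, a 12.5-fold difference. Cdx2, the master regulator of intestinal identity, stood at −8.01 in esophagus, where it was not well above background, and at 1.90 in intestine, at least 201-fold higher. Barx1, a transcription factor of foregut and stomach mesenchyme, stood at 0.92 and −4.34, a 38.4-fold difference towards esophagus, and its stomach level was 4.50. The esophagus array thus carried these foregut markers and the intestine array Cdx2. Sox2 stood at 0.63 in stomach, so Sox2 and Barx1 do not set esophagus apart from stomach. The esophagus array also carried Nkx2-1, the transcription factor of lung, trachea and thyroid, at −1.10, whereas in intestine it was at −8.94 and not well above background, at least 56.4-fold lower. Of the intestinal markers, Cdx1 was below background on both arrays.

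In all, 12% of the genes with a fold were at least 2-fold higher in esophagus and 8.69% in intestine. At 4-fold the counts were 536 (3.85%) and 249 (1.79%), together 5.64%, at 8-fold 189 and 98, and at 16-fold 95 and 37. The median fold among the genes called was 3.10 in esophagus and 2.55 in intestine. The esophagus therefore held more genes at every size of fold. That balance varied with the scaling between arrays. Esophagus had 57.95% of the calls here and 20.4% (964 against 3751) when each array was centred on its median. It had 42.7% (1351 against 1811) after quantile normalization and 72.4% (1727 against 660) after normexp background correction. The median of all genes moved to −0.61, −0.20 and −0.01 under the same settings. Bounds started from unequal lowest levels, −5.75 in esophagus and −6.92 in intestine, which makes a call for esophagus easier. All 187 genes dim only in intestine were called for esophagus, whereas 227 of 1183 dim only in esophagus were called for intestine. The 1183 include the 565 genes with no fold. A gene entered at the intestine array's lowest level is past 2-fold for any esophagus level well above background. Such a call was set by the filter. With only probes well above background on both arrays, 1479 genes were called for esophagus and 981 for intestine. Called at 2-fold under all 5 scalings and corrections tried were 951 of the 1665 esophagus genes and 473 of the 1208 intestine genes. Of the 292 genes named by rule, normexp left 178 within 0.80 (log2) of their value, moved 102 further and turned the sign of 3, and the mean of all probes moved 26 and turned 5.

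Most genes of largest fold were on none of the 33 gene lists used here, which held 544 genes, 483 of them with a fold. Counts of members below are over those with a fold. They are to be read beside the shares over all genes, 12% higher in esophagus and 8.69% higher in intestine. The other members were not named on the array, were below background on both arrays or had a bound under 1. Of the 189 genes at least 8-fold higher in esophagus, 58 were on a list: 21 on the heart and skeletal muscle lists, 7 on that of lung and trachea, 7 on that of stratified foregut epithelium and 6 on that of limb, head and body wall mesenchyme. Of the 98 genes at least 8-fold higher in intestine, 35 were on a list: 11 of liver, 9 Hox genes of paralog groups 6 to 13 and 8 of intestinal epithelium. These counts describe the lists and are no test of them.

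**Figure D2:**
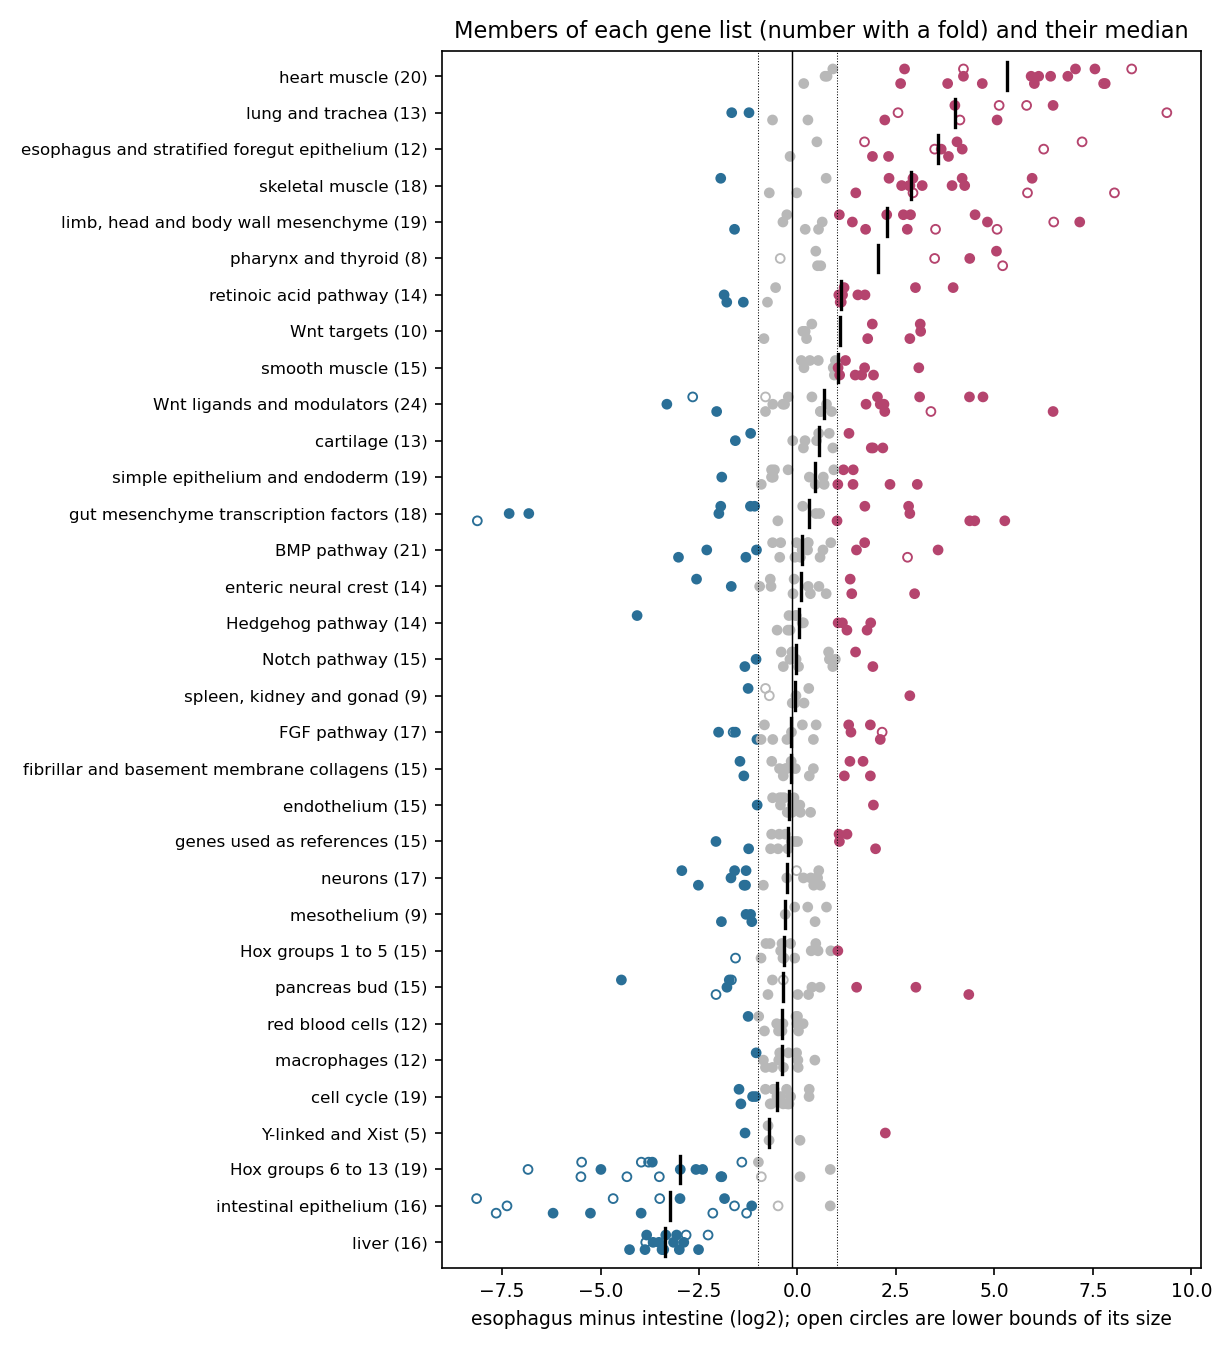
Difference between esophagus and intestine (x axis, log2) for every member with a fold of each of the 33 lists (rows, number of members with a fold in brackets), with the median of the list as a black bar. Filled circles are measured on both arrays, open circles are lower bounds, colours mark at least 2-fold (dotted lines), and the solid line is the median of all genes, −0.13. Heart muscle has the highest median, 5.31, and liver the lowest, −3.37.

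Genes of stratified foregut epithelium were higher in esophagus. Of the 12 list members with a fold, 10 were at least 2-fold higher in esophagus, none was in intestine, and the median difference was 3.57. With only probes well above background on both arrays, 6 of 8 were higher in esophagus, with a median of 2.98. Trp63, which encodes p63, the transcription factor that maintains basal cells, stood at 0.31 in esophagus and at −7.92 in intestine, not well above background and at least 150-fold lower. Pax9, a paired-box factor of the pharyngeal and esophageal endoderm, stood at −0.67 and −7.64, at least 76.2-fold apart. Both were thus measured on the esophagus array and not on the intestine array. Of the basal keratins, Krt15 stood at 1.70 and −2.48, an 18.2-fold difference, and Krt5 at −0.59 and −4.42, a 14.3-fold difference, whereas Krt14, the partner of Krt5, was within 2-fold at −3.76 and −3.57. Perp, a desmosomal protein and p63 target, stood at 2.34 and −1.71, 16.6-fold apart. Krt13, a keratin of the mature squamous layer, was within 2-fold too, at −2.90 and −3.39. Besides these lists, Anxa8 (2.14 and −5.40, 185-fold) and Trim29 (0.05 and −6.49, at least 93.3-fold), both known from stratified epithelia, were among the 10 genes of largest fold measured by 1 probe.

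General epithelial genes were divided. Epcam, Krt8, Krt18 and Krt19, which most simple epithelia express, were all under 2-fold and slightly lower in esophagus (Epcam −0.76 against 0.16 and Krt8 3.39 against 4.0), while Cdh1 stood at 0.06 and −0.62. Foxa2, a pioneer factor of the endoderm, stood at 2.88 in esophagus and −0.16 in intestine, 8.24-fold higher in esophagus, and Foxa3 at −4.67 and −2.75, 3.79-fold higher in intestine. Within the Foxa genes the difference thus pointed both ways, with Foxa1 at −0.68 and −0.45. Of 19 members of the simple epithelium list, 6 were 2-fold higher in esophagus and 1 in intestine (median 0.45). Under median centring the counts were 2 and 7, so no direction of the list is given.

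Genes of lung and trachea were higher in esophagus for 9 of 13 members, with 2 higher in intestine and a median of 4.0. Tbx5, a T-box factor of heart, forelimb and lung mesenchyme, stood at 2.46 in esophagus and −7.05 in intestine, at least 666-fold apart, and its other probe gave 3.31 on the log2 scale. Wnt2, a ligand that specifies the respiratory endoderm, stood at 1.76 and −4.73, an 89.9-fold difference. Sftpc, which encodes surfactant protein C of the distal lung epithelium, stood at −1.74 and −6.86 and was at least 34.8-fold higher in esophagus. Irx2 (0.65 and −4.42, 33.6-fold) and Irx1 (2.90 and −1.10, 16-fold), Iroquois factors of the lung bud, held with all of their probes. Genes of this list were therefore present on an array labelled esophagus. The summed signal of the list was 21.4 times the 75th percentile there, 52.8 on the lung array, 3.83 in intestine and 3.73 in stomach. Irx1 alone held 7.46 of the esophagus sum (34.9%). Nkx2-1 stood at −1.10 in esophagus and 2.47 on the lung array, and Sftpc at −1.74 and 2.14. The lung array was dimmer, with 39.0% of its spots well above background and a 75th percentile signal of 32, and reference genes summed to 2874 there and to 1244 in esophagus. The list median was 1.24 over the 8 members well above background on both arrays. Genes of the pharynx were higher in esophagus for 4 of 8 members, Foxe1, Tbx1 and Pax1 among them, and in intestine for none. With only probes well above background on both arrays, 2 of 5 were higher in esophagus. Tbx1, the T-box factor of the pharyngeal pouches and their mesoderm, stood at 3.66 and −1.39, 33.2-fold apart, and Pax1, of the pharyngeal endoderm, at −1.71 and −8.17, at least 37.0-fold. Foxe1 stood at −3.02 and −6.50, at least 11.2-fold apart, while the thyroid gene Tg was under 2-fold and Pax8 was below background on both.

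Heart muscle genes gave the highest median of any list. Of 20 members, 16 were at least 2-fold higher in esophagus and none in intestine, and the median difference was 5.31. With only probes well above background on both arrays, 13 of 17 were higher in esophagus, with a median of 4.69. Myl7, the atrial regulatory light chain of myosin, stood at 6.06 in esophagus and −1.0 in intestine, a 133-fold difference. Myh6, the alpha heavy chain of heart myosin, stood at 2.04 and −5.77, a 225-fold difference that its other probe gave as 8.46 on the log2 scale. Cardiac sarcomere genes were thus bright on the esophagus array. Mybpc3, the heart myosin-binding protein, stood at 3.24 and −4.31, 188-fold apart. Tnnt2, troponin T of the heart, stood at 3.54 and −3.32, 117-fold apart. Csrp3, a muscle LIM protein, was at least 359-fold higher (1.57 and −7.60). Nppa, which encodes the atrial natriuretic peptide, stood at 1.15 and −4.87 and Myl4, the atrial essential light chain, at 3.92 and −2.21, 64.7-fold and 69.8-fold apart. The 4 members under 2-fold were Gja5, Hcn4, Nppb and Ryr2, a gap junction protein, a pacemaker channel, a natriuretic peptide and a calcium release channel. The summed signal of the list was 149 times the 75th percentile in esophagus, 6.14 in intestine, 5.46 in stomach and 12.5 in lung. Tbx18 (−0.41 and −9.0, at least 90.9-fold), a T-box factor of the epicardium and of somites, was higher on the same array. What heart tissue in the dissected sample contributes to these values was not tested.

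The promoters of 3 heart members that were higher in esophagus and of 2 of the leading intestinal genes are shown because they hold the motifs marked: the heart genes are the 3 with a CArG box. The 120 bases before the RefSeq start site are printed 5′ to 3′ on the strand of the gene, in build GRCm38.p6, which is not the build of the array design. Capitals mark CArG boxes, the motif bound by serum response factor, and TTTATG on either strand, a motif of CDX factors.
Myl7, chr11:5898783-5898902, minus strand: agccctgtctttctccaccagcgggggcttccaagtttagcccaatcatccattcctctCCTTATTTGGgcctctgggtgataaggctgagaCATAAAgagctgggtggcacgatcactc
Actc1, chr2:114052876-114052995, minus strand: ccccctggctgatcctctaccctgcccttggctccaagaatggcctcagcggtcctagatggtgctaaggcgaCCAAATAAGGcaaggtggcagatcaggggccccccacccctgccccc
Myl3, chr9:110763558-110763677, plus strand: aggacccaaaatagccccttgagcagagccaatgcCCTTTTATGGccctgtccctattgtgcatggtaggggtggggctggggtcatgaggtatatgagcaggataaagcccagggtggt
Vil1, chr1:74409264-74409383, plus strand: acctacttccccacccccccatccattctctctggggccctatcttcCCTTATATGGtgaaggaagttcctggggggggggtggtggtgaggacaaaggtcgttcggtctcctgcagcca
Lgals2, chr15:78855530-78855649, minus strand: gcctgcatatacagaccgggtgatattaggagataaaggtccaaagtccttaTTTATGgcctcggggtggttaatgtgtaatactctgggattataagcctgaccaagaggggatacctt
A CArG box lay in the 300 bases around the start (250 before to 50 after) of 3 of the 19 heart members with a promoter in the RefSeq table, the 3 shown, and in 1.81% of all 27025 promoters of that length. It also lay in the Vil1 promoter, a gene with the opposite direction. TTTATG lay in 4 of 12 promoters of intestinal epithelium members, in 5 of 19 of heart members and in 13.6% of all. A MEF2 site, the other muscle motif searched, lay in 1 of 19 promoters of heart members, Mybpc3, and in 3.70% of all. Among the 11052 genes with a fold and a promoter, the shares were 1.72% for the CArG box, 8.81% for TTTATG and 2.33% for the MEF2 site. In Myl3 the match to TTTATG overlaps the CArG box. Actc1, cardiac alpha actin, stood at 4.21 in esophagus and 1.59 in intestine, and Myl3, a ventricular light chain, at 0.93 and −2.88. A match is a description of the letters and was not tested as a binding site.

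Skeletal muscle genes were also higher in esophagus, in 14 of 18 members with 1 higher in intestine and a median of 2.89. With only probes well above background on both arrays, 11 of 16 were higher in esophagus and 1 in intestine, with a median of 2.74. Myog, the bHLH factor that drives differentiation of muscle cells, stood at 0.29 in esophagus and −5.67 in intestine, a 62.2-fold difference. Myod1, a factor that commits cells to muscle, stood at −2.31 and −5.16, 7.24-fold apart. Myh8, the perinatal myosin heavy chain, was at least 265-fold higher (1.46 and −6.59) and Chrng, the fetal subunit of the muscle acetylcholine receptor, at least 57.3-fold higher (−1.08 and −7.67), though the other Chrng probe gave 0.79 on the log2 scale. Regulators, contractile genes and receptor subunits of skeletal muscle thus pointed the same way. Myf5 was below background on both arrays. The member higher in intestine was Tcf21, a bHLH factor of visceral mesenchyme and of some head muscles, at 1.11 and 3.06. Summed over the list, the signal was 26.9 in esophagus and 11.9 in intestine, in units of the 75th percentile, and Tcf21 alone held 8.36 of the intestine sum (70.3%). The esophagus sample had markers of heart and of skeletal muscle together, and the origin of either was not tested.

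Smooth muscle genes differed less. All 15 members lay above 0, 8 of them at least 2-fold higher in esophagus, with a median of 1.03 (0.53 with 4 members past 2-fold under median centring). Myh11, the smooth muscle myosin heavy chain and a late marker, stood at 1.34 in esophagus and −1.74 in intestine, 8.46-fold apart. Cnn1, calponin, stood at 4.82 and 2.89, 3.81-fold apart. The actins were just under 2-fold, Acta2 at 5.94 and 5.01 and Actg2 at 4.59 and 3.68. The summed signal of the list was 235 in esophagus and 115 in intestine.

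Transcription factors of gut mesenchyme were split between the organs. Of 18 gut mesenchyme factors, 7 were at least 2-fold higher in esophagus and 7 in intestine. Hand1, a bHLH factor of the lateral mesoderm, stood at −5.33 in esophagus, just above that array's lowest level but not well above background, and at 2.80 in intestine, at least 280-fold higher. Nkx2-3, a homeobox factor of hindgut and midgut mesenchyme, stood at −3.83 and 2.99, 113-fold higher in intestine. Mab21l2, a developmental regulator of the body wall and eye, stood at −4.63 and 2.69, 160-fold higher in intestine. These 3 were the intestinal extreme of the list. At the other extreme lay Barx1 and Osr1, an odd-skipped factor of foregut mesoderm, at 4.30 and −0.20, 22.6-fold higher in esophagus. Foxf1 and Foxf2, Hedgehog-induced factors of splanchnic mesoderm throughout the gut, were within 2-fold, at 0.01 and −0.55 and at 2.92 and 2.78.

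Factors of limb, head and body wall mesenchyme were higher in esophagus for 13 of 19 members and in intestine for 1, with a median of 2.27 (1.5 under median centring, with 11 members past 2-fold). With only probes well above background on both arrays, 10 of 16 were higher in esophagus and 1 in intestine, with a median of 1.56. Foxd1, a forkhead factor of kidney stroma and of mesenchyme in the foregut, stood at 1.99 and −5.18, a 144-fold difference that its other probe gave as 6.88 on the log2 scale. Prrx1, a homeobox factor of limb and craniofacial mesenchyme, stood at 3.07 and −1.76, 28.3-fold apart, and its 4 probes ranged from 4.81 to 7.58. Foxc1, a forkhead factor of paraxial mesoderm, stood at 2.27 and −2.24, 22.8-fold apart. Lhx8, of the oral jaw mesenchyme and forebrain, stood at −1.85 and −8.73, at least 33.5-fold apart. All of these were well above background in esophagus. Dlk1, an imprinted Notch-like ligand, was the member higher in intestine, at 3.39 and 4.99.

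**Figure D3:**
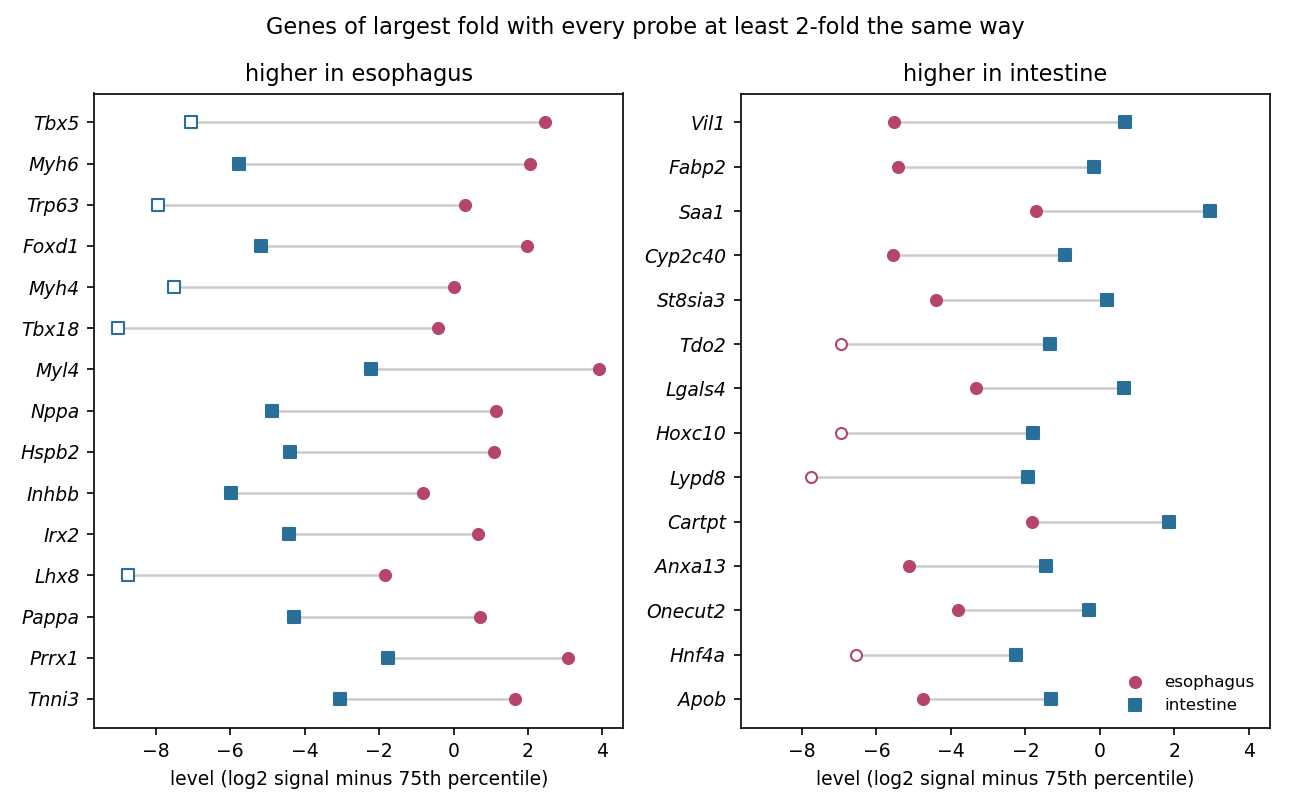
Levels (x axis, log2 signal relative to the array's 75th percentile) on the esophagus array (circles) and the intestine array (squares). Genes are among the 15 of largest fold each way whose probes with a fold, 2 or more, were all at least 2-fold that way. Open symbols were not well above background, and grey lines join the 2 arrays. Tbx5 leads on the esophagus side with a bound of at least 666-fold, and Vil1 on the intestine side with 73.8-fold.

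Genes of the intestinal epithelium were higher in intestine for 14 of 16 members and in esophagus for none, with a median difference of −3.24. Vil1, villin, an actin-bundling protein of the brush border, stood at −5.53 in esophagus and 0.67 in intestine, a 73.8-fold difference that its other probe gave as −5.95 on the log2 scale. Lgals2, a galectin of the gut epithelium, stood at −7.10 and 2.40, at least 284-fold apart. Isx, an intestinal homeobox factor that acts on vitamin A uptake, stood at −7.73 and 1.62, at least 166-fold apart. The last 2 were not well above background in esophagus. Fabp2, the intestinal fatty acid binding protein, stood at −5.43 and −0.17, 38.2-fold apart, and Lgals4 at −3.33 and 0.64, 15.7-fold apart. Tff3, a secreted trefoil peptide, was at least 25.6-fold higher in intestine (−7.62 and −1.07). Hnf4a, a nuclear receptor of gut and liver epithelium, stood at −6.54 and −2.25, at least 11.3-fold apart by its brightest probe. Another probe gave −1.12 on the log2 scale, and the remaining probe (−7.79 and −6.55) had no fold. The members not called were Cdhr2, which was not well above background in esophagus and has only a bound of at least 1.41-fold (−7.69 and −5.26), and Gata4, a zinc finger factor of foregut and proximal intestine, at −3.18 and −4.01.

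Liver genes were all higher in intestine: 16 of 16 members, with a median of −3.37 and folds from 4.82 (a bound, for Fga) to 19.2. Afp, alpha-fetoprotein, stood at 3.12 in esophagus and 5.63 in intestine, 5.70-fold apart. Alb, albumin, stood at −0.36 and 2.98, 10.2-fold apart, and Ahsg, fetuin, at −2.56 and 0.96, 11.4-fold apart. The spread of folds was narrow beside that of the heart or Hox genes. Several members are also made by the embryonic gut or yolk sac (the apolipoproteins, Ttr, Afp), and Ambp (0.61 and 4.88, 19.2-fold) had the largest fold. Saa1, not on the list and also known from liver and gut, was among the 15 genes of largest fold with all probes 2-fold apart, at −1.72 and 2.97. The summed signal of the list was 129 in intestine, 15.1 in esophagus, 15 in stomach and 37.1 in lung. The part of liver tissue in the sample was not tested. Pancreatic genes pointed both ways, with 5 of 15 members higher in intestine and 3 in esophagus. Cpa1, a pancreatic carboxypeptidase, stood at −3.23 and 1.24, 22.2-fold higher in intestine. Ptf1a and Pdx1, the regulators of the pancreatic buds, were low on both arrays, at −7.55 and −3.68 and at −7.40 and −4.07, at least 4.19-fold and at least 3.20-fold higher in intestine. Nkx6-1, a homeobox gene of beta cells, foregut mesenchyme and neurons, went the other way, at 2.58 and −1.77, 20.4-fold higher in esophagus, and so did Mnx1, at −0.90 and −3.90. The list median, −0.36, lay at 0.52 under normexp.

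Among genes well above background on both arrays, the largest fold towards intestine belonged to Syt10, a synaptotagmin, a calcium sensor of vesicle fusion, at −4.43 in esophagus and 5.45 in intestine, 941-fold apart. Nepn, nephrocan, a secreted protein of the gut endoderm, stood at −7.50 and 1.13, at least 118-fold apart. Tdh, threonine dehydrogenase, stood at −2.86 and 3.10, 61.9-fold apart. On the stomach array Nepn stood at 3.25, above its intestine level, Syt10 at 3.25 and Tdh at −1.09. Syt10, Nepn and Tdh were each measured by 1 probe, so no other probe bears on the fold.

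Hox genes split by paralog group. Of the 15 genes of groups 1 to 5, which pattern the hindbrain and anterior trunk, 13 were within 2-fold, and the median difference was −0.34 (−0.85 under median centring, with 4 genes higher in intestine). The exceptions were Hoxa5, required for tracheal and lung development, at 1.54 in esophagus and 0.51 in intestine, 2.04-fold higher in esophagus (0 members past 2-fold in that direction under median centring), and Hoxd1, at −6.73 and −4.18, at least 2.98-fold higher in intestine. Of the 19 genes of groups 6 to 13, 15 were higher in intestine and none in esophagus, with a median of −2.98. Groups 6 to 8 had a median of −2.98 over 7 genes and groups 9 to 13 a median of −3.04 over 12 genes, so both stretches had a similar median. The last value is a lower limit in part, because 7 of those 12 genes were not well above background in esophagus. The summed signal of groups 6 to 13 was 3.52 in esophagus, 24.3 in intestine and 37.0 in stomach. On the stomach array Hoxa7 stood at 4.42 and Hoxb7 at 2.58, whereas Hoxa11 stood at −7.65 and Hoxc9 at −7.94.

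HoxA and HoxB differed at group 6, by 1 probe a gene. No gene was measured between Hoxc5 and Hoxc8 or between Hoxd4 and Hoxd8, and Hoxc6 was not named on the array. Where the difference began in HoxC and HoxD therefore cannot be placed. In HoxA, Hoxa6 was equal (−3.01 in esophagus and −3.08 in intestine), Hoxa7 was 7.87-fold higher in intestine (−0.55 and 2.42), Hoxa9 lay just under 2-fold (−0.14 and 0.85), and Hoxa10 and Hoxa11 were at least 45.2-fold and at least 115-fold higher. Hoxa11, the extreme, stood at −7.19 and 1.09, and Hoxa10 at −7.54 and −0.25. In HoxB, Hoxb6 (−0.30 and 2.11, 5.31-fold) and Hoxb7 (−1.60 and 2.09, 12.9-fold) were higher in intestine, while Hoxb9 was not (−1.79 and −2.63), and its 2 probes gave 0.83 and −0.28. In HoxC, Hoxc8, Hoxc9 and Hoxc10 were at least 20.1-fold, 31.8-fold and at least 15.6-fold higher in intestine, with Hoxc9 at −3.75 and 1.24. In HoxD, Hoxd10 was at least 44.6-fold higher (−7.41 and −0.27), and Hoxd8, Hoxd9, Hoxd11 and Hoxd13 were higher too. Hoxd13, the last gene of its cluster, stood at −5.33 and −2.75, 5.97-fold apart, and its other probe gave −0.78 on the log2 scale. Hoxc12 and Hoxc13 were below background on both arrays.

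**Figure D4:**
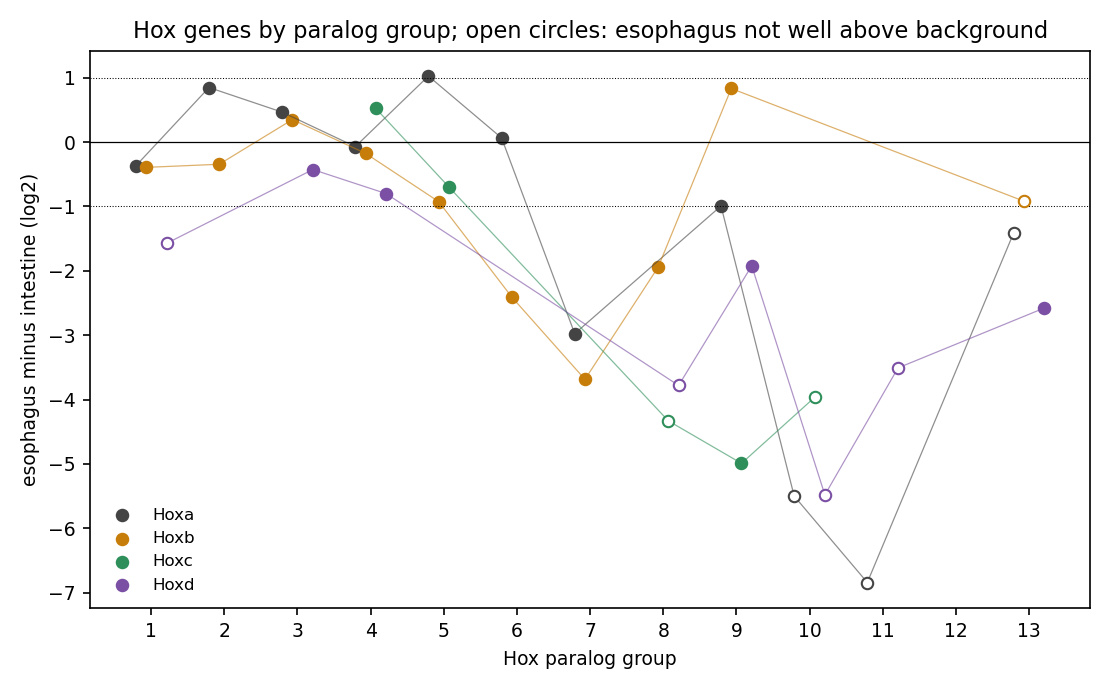
Difference between esophagus and intestine (y axis, log2) of each Hox gene with a fold, by paralog group (x axis) and cluster (colour); points of a group are set side by side. Open circles are bounds where esophagus was not well above background, and dotted lines mark 2-fold. Groups 1 to 5 lie near 0, with a median of −0.34, and most of groups 6 to 13 lie below −1, except Hoxa6, Hoxa9, Hoxb9 and Hoxb13.

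Wnt signalling genes were the signalling list with the widest spread. Of 24 ligands and modulators, 10 were higher in esophagus and 3 in intestine (median 0.66; 10 and 6 under median centring). Among the ligands, Wnt6, at −0.80 and −5.16, was 20.6-fold higher in esophagus after Wnt2. Rspo2, a secreted amplifier of Wnt signals, stood at 0.00 and −4.71, 26.2-fold higher in esophagus. Wnt16 stood at −5.59 in esophagus, not well above background, and −2.93 in intestine, at least 6.32-fold higher there. Among the antagonists, Dkk2 stood at −1.67 and 1.65, 9.96-fold higher in intestine. Of 10 genes that Wnt signals induce, 5 were at least 2-fold higher in esophagus and none in intestine, with a median of 1.07. Sp5 (−0.60 and −3.73, 8.74-fold), Lef1 (0.19 and −2.93, 8.68-fold) and Lgr5 (−1.01 and −3.86, 7.23-fold) led, while Axin2, a common readout, was within 2-fold at −1.47 and −1.66.

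Of the Hedgehog ligands, Shh was within 2-fold (−0.85 and −0.63) and Ihh was not. Ihh, Indian hedgehog, stood at −5.23 in esophagus and −1.16 in intestine, 16.8-fold higher in intestine. Ptch1, receptor and target of the pathway, stood at 0.91 and −0.86, 3.40-fold higher in esophagus, and Cdon, a co-receptor, at −0.68 and −2.54, 3.63-fold higher in esophagus. Of 14 members, 5 were higher in esophagus and 1 in intestine, and 2 and 2 under median centring.

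Retinoic acid genes pointed both ways, synthesising enzymes included. The synthesising enzyme Aldh1a2 stood at 3.62 in esophagus and 5.48 in intestine, 3.64-fold higher in intestine, and Rdh10, which makes its substrate, at −1.62 and 0.18, 3.47-fold higher there. Cyp26a1, the enzyme that breaks retinoic acid down, stood at −0.17 and −4.12, 15.5-fold higher in esophagus, and Aldh1a3, another synthesising enzyme, at −2.44 and −5.44, 7.98-fold higher in esophagus. Of 14 members, 9 were higher in esophagus and 3 in intestine. Median centring left 4 and 5.

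BMP and FGF genes pointed both ways. Bmp4, a ligand of gut mesoderm, stood at 0.66 and 1.97, 2.48-fold higher in intestine, and so was the antagonist Fst, follistatin (−0.47 and 1.83, 4.94-fold). Bmper, a modulator of BMP signals, stood at 1.63 and −1.94, 11.9-fold higher in esophagus, and its other probe gave 3.54 on the log2 scale. Of 21 BMP members, 4 were higher in each organ. Of 17 FGF members, 5 were higher in esophagus and 4 in intestine (3 and 7 under median centring, 3 and 5 under quantile normalization), including Etv4, a transcription factor induced by FGF, at −2.14 and −0.13, 4.01-fold higher in intestine. Of 15 Notch genes, 2 were higher in each organ: Jag2 and Notch1 in esophagus, and the ligands Dll1 and Dll3 in intestine. That share, 13.3% each way, lay near the 12% and 8.69% over all genes. Gdnf, the growth factor that draws enteric neural crest cells along the gut, stood at −3.60 and −1.04, 5.91-fold higher in intestine, and Edn3 at −3.05 and −1.37, 3.21-fold higher. Ret, the receptor of Gdnf and a marker of the crest cells, was within 2-fold (−4.61 and −3.94). Of 14 enteric neural crest genes, 3 were higher in esophagus and 2 in intestine (1 and 5 under median centring). Erbb3 was 7.86-fold higher in esophagus (−3.29 and −6.27), and its 4 probes gave 2.16 to 2.97 on the log2 scale. Gfra1 was 2.60-fold higher in esophagus (0.94 and −0.44), though its other probe gave 0.19. Ednrb, the receptor of Edn3, stood at 3.45 and 2.11, 2.53-fold higher in esophagus, though its other probe gave 0.01 on the log2 scale. Of 17 neuronal genes, 7 were higher in intestine and none in esophagus, led by Isl2 (−1.26 and 1.68, 7.65-fold) and Dbh (−3.06 and −0.54, 5.72-fold), a homeobox factor and an enzyme of noradrenaline synthesis.

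Genes of cell types shared by both organs had small differences in most cases. Embryonic globins of red cells were at the same level, Hba-x at 5.73 and 5.77, Hbb-y at 6.88 and 6.90 and Hbb-bh1 at 5.70 and 5.68, and 1 of 12 red cell genes was past 2-fold, in intestine (4 under median centring and under quantile normalization). Of 15 endothelial genes, 1 was higher in each organ, with Pecam1 at −0.22 and 0.04 and Cdh5 at 0.84 and 1.06. Of 12 macrophage genes, 1 was higher in intestine (4 under median centring and 3 under quantile normalization). Csf1r stood at −0.50 and −0.27 by its brightest probe, and another of its 3 probes gave 1.93 on the log2 scale. The medians of these lists were −0.38, −0.22 and −0.40, beside −0.13 over all genes. Mesothelial genes were 2-fold higher in intestine for 4 of 9, among them Upk3b (−0.77 and 0.54), while Wt1 was at 0.46 and 0.53. Of 19 cell cycle genes, 4 were higher in intestine and none in esophagus (median −0.52, and 10 genes past 2-fold under median centring). Of the collagens and other matrix genes, Col1a2 stood at 7.42 and 5.57, 3.61-fold higher in esophagus, and Col1a1 at 6.0 and 4.34, 3.17-fold, while Postn stood at 0.62 and 2.08, 2.75-fold higher in intestine. Of 13 cartilage genes, 4 were higher in esophagus and 2 in intestine, with Col2a1 at 2.29 and 0.42, 3.66-fold higher in esophagus, and Acan within 2-fold. Genes often used as references were not constant: Actb stood at 4.23 and 2.25, 3.95-fold higher in esophagus, and Tfrc at −1.14 and 0.92, 4.20-fold higher in intestine. Rplp0 was 2.09-fold higher in esophagus by its brightest probe, but its other probe gave 0.01 on the log2 scale and quantile normalization gave 0. Xist, the RNA of the inactive X chromosome, stood at 0.42 and −1.81, 4.69-fold higher in esophagus, and the Y-linked Eif2s3y at −1.82 and −0.49, 2.52-fold higher in intestine. Also Y-linked, Ddx3y (−0.68 and 0.04), Kdm5d (−2.37 and −1.62) and Uty (−4.22 and −4.28) were within 2-fold. The part of sex in the other differences was not tested.

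Probes of a gene gave the only check of a fold within these arrays. They share the RNA and the array, so their agreement bears on the probe and not on the organ. Of the 857 called genes with 2 or more probes, the probes of 633 all pointed the same way (73.9%, 95% Wilson interval 70.8 to 76.7, which covers counting error only). For genes higher in esophagus the share was 442 of 574 (77%, 73.4 to 80.3), and for genes higher in intestine 191 of 283 (67.5%, 61.8 to 72.7). All probes were at least 2-fold apart the same way for 284 and 99 of them. Agreement was higher at larger folds: among genes at least 4-fold apart, 137 of 158 (86.7%) and 42 of 48 (87.5%) agreed, and among genes at least 8-fold apart 45 of 46 and 19 of 19, whereas at 2-fold to 4-fold it was 305 of 416 (73.3%) and 149 of 235 (63.4%). At 8-fold, Ablim3 was the exception. Probes without a fold are left out of these counts. A probe dim on 1 array has a fold only when it points to its bright array, so its sign was set by the filter. Where the brightest probe was dim on 1 array, 15 of 15 esophagus genes and 14 of 16 intestine genes agreed. Where that probe was well above background on both arrays, 427 of 559 (76.4%) and 177 of 267 (66.3%) did. Across the 4925 genes with 2 or more probes, called or not, r of the brightest and the next probe was 0.444 and 61.3% had the same sign. The pooled SD of the difference among probes of a gene was 0.80 on the log2 scale.

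**Figure D5:**
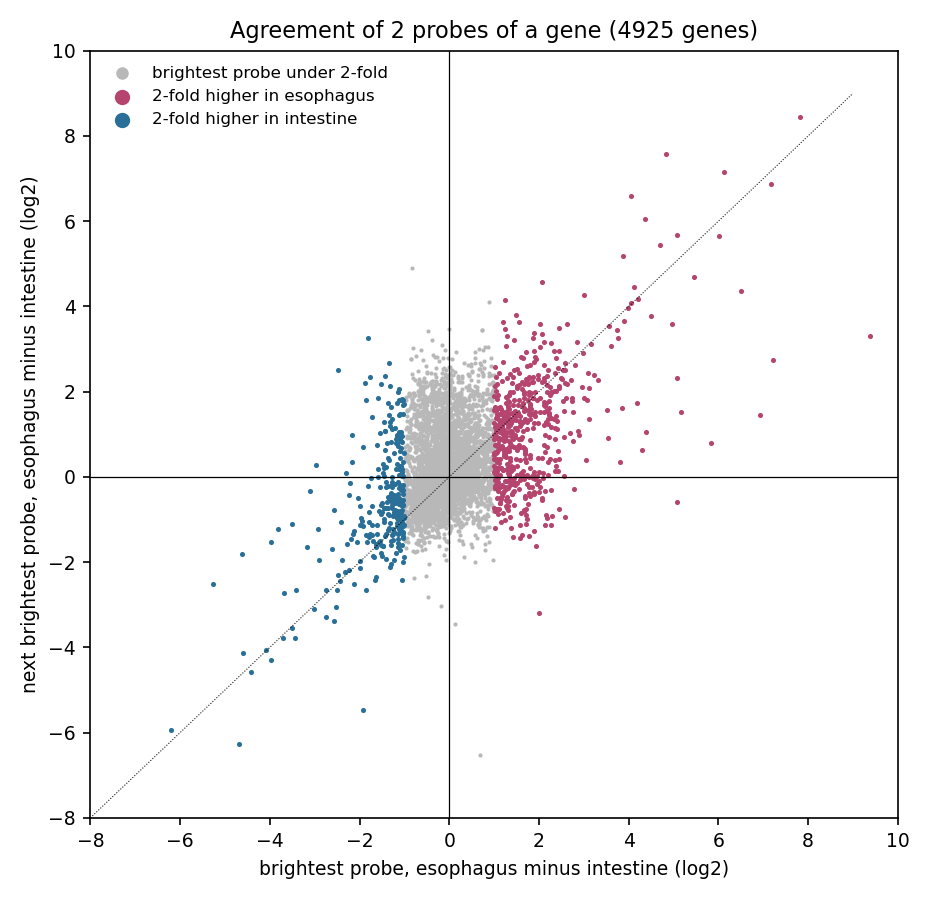
Difference between esophagus and intestine (log2) by the next brightest probe (y axis) against that by the brightest probe (x axis) for the 4925 genes with 2 or more probes. Colours mark genes at least 2-fold apart by the brightest probe, and the dotted line marks equal differences. Beyond 8-fold (3 on the log2 scale) most points lie in the quadrants of equal sign, and near 2-fold many cross 0.

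The genes whose probes disagreed most were called by their brightest probe all the same. Ablim3, an actin-binding LIM protein, stood at −0.86 and −5.93, 33.6-fold higher in esophagus, and its other probe gave −0.58 on the log2 scale. Serpinc1, antithrombin, a liver protein, was 4.03-fold higher in esophagus by its brightest probe and −3.20 by the other. On the intestine side, Lrba, Gzf1, Dlg2, Svop and Nsmaf had a probe at 2.50, 2.20, 3.27, 2.35 and 2.67 against brightest probes of −2.49, −1.88, −1.82, −1.77 and −1.35. A probe at least 2-fold the opposite way was present for 18 genes called in esophagus and 39 called in intestine. The folds of these genes are open to the choice of probe.

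Near the threshold, genes on either side differed from each other by less than the spread among probes. Just past 2-fold towards esophagus lay Taok1 (1.0), Trrap (1.0) and N4bp2l2 (1.0), and just under it Rfx7 (1.0), Zfp317 (1.0) and Jarid2 (1.0). Towards intestine, Apex2, Mdk and Casp8 lay at −1.0 just past the threshold and Sqor, Sigirr and Cobll1 at −1.0 just under it. Mdk, midkine, a growth factor, stood at 5.73 and 6.73.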

How the data were processed

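Total RNA of organ primordia was hybridised to 1-colour Agilent arrays, 1 array an organ. Per the file headers, spots were quantified in Agilent Feature Extraction 10.5.1.1 (protocol GE1_105_Dec08, design 014868, build mm8), and the deposited processed signal is a linear spot intensity after background subtraction and detrending. The authors' deposited series table holds log2 values. Against the scanner files it matched the log2 processed signal less the 75th percentile (r = 0.99998 in both arrays), with medians of −2.97 for esophagus and −3.47 for intestine, and it was an alternative here.

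From the scanner files, spots with outlier flags were left out (47 probes dropped), copies of a probe were averaged, and log2 signals were centred on the 75th percentile of the array's probes. Of 41174 probes, 24375 (59.2%) were named by matching accessions to the RefSeq table of GRCm38.p6, used for names and promoter sequences, and the rest stayed unnamed. A gene took the value of its brightest probe by mean level. A gene dim on one array has a bound for a fold: its bright level over its own dim level or the dim array's lowest level well above background, whichever was higher. For 565 genes this bound was under 1 and no fold is given. A 2-fold or 4-fold difference is a size, not a test.

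The comparison, the 33 gene lists and the naming rule were chosen with earlier results of these data known. The rule named, per direction, the 15 genes of largest fold with all probes 2-fold apart, the 10 of largest fold with 1 probe, the 5 on either side of 2-fold and the 5 with the most discordant probes, plus up to 6 per list, the cell type markers and all Hox genes. Named beyond the rule, after their values were seen, were Actc1, Axin2, Bmp4, Cdhr2, Dlk1, Fga, Foxa1, Foxf1, Foxf2, Gata4, Gja5, Hcn4, Irx1, Krt8, Krt13, Krt14, Krt18, Krt19, Cdh1, Epcam, Myl3, Nppb, Ryr2, Shh, Tcf21, Wnt16 and the genes of the families under other observations. A few genes the rule named are not reported here. Alternatives were other scalings, normexp with an offset of 50, the series table, the filter on dim probes and the gene value. The files hold no gene name column and no mean signal, so naming by the file could not be tried and normexp used the median signal. Calculations used Python 3.11.15, numpy 2.4.6, pandas 2.3.3, scipy 1.17.1, R 4.3.3 and limma 3.58.1, and were tested on simulated data.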

Additional observations from a re-analysis of the deposited data

How the results depend on the processing

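Scaling and background set the counts. Centring each array on its median gave 964 genes 2-fold higher in esophagus and 3751 in intestine, and 295 and 456 at 4-fold. Normexp gave 660 genes 2-fold higher in intestine, and 213 and 93 at 4-fold for esophagus and intestine. Without a filter on dim probes 3105 genes were 2-fold higher in esophagus and 390 were 4-fold higher in intestine. Requiring 2 or more probes, all past the fold, left 285 and 99 genes at 2-fold and 64 and 21 at 4-fold; the 285 include Tbx15, whose brightest probe has no fold. The share of called genes with several probes whose probes all point one way was 70.5% under median centring and 80.3% under normexp. Under normexp, which shrinks dim signals, list medians were 2.46 for stratified foregut epithelium, −2.29 for intestinal epithelium, 2.10 for lung and trachea, 0.52 for pancreas, 3.83 for heart, 2.06 for skeletal muscle and −1.15 for Hox groups 6 to 13. With only probes well above background on both arrays, lung and trachea had 1.24, pharynx and thyroid 0.59 (0.51 with no filter) and Hox groups 6 to 13 −2.18; those lists then hold fewer members. In the series table the lung and trachea median was 2.55, because Nkx2-1 differs: 1 of its 10 intestine copies, left out here by its outlier flag, had a signal of 88.1, against 1.84 to 2.46 among the copies kept. Taking the mean of all probes turned the sign of Serpinc1 (−0.60), Dlg2 (0.73), Svop (0.29), Gzf1 (0.16) and Nsmaf (0.66), whose probes disagree. Normexp turned Trp73 (0.19), Spdef (0.26) and Sst (0.13); the cause was not tested. For every other count over all genes and list median, each alternative stayed within 1.5 times the count or 0.80 of the median, and the share within its interval. Counts of members past 2-fold within lists moved further: under median centring, intestine counts were 7 for FGF, 5 for enteric neural crest, 4 for red cells and 4 for macrophages, from 4, 2, 1 and 1. Among genes named by rule, normexp moved 102 by over 0.80, the mean of all probes 26 and no filter 24. Naming by the file was not run, leaving out a replicate is impossible with 1 array an organ, and no paired analysis was possible because each organ has 1 array. Differences in dissection, in RNA and between embryos are not measured, and signal over background limits what can be said of genes below −5.75 in esophagus or −6.92 in intestine.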

Other observations

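Families defined by the start of the gene symbol, 229 of them with 8 or more genes, were read after the lists, and those named here were chosen after their values were seen. T-box genes had the highest median, 4.12 over 9 genes, with 6 of them 2-fold higher in esophagus. Besides Tbx5, Tbx18, Tbx1 and Tbx4, these were Tbx20 (−0.27 in esophagus and −4.40 in intestine), a heart factor, and Tbx21 (−3.02 and −5.78), a T cell factor. Tbx2 (1.65 and 1.32), Tbx3 (2.94 and 3.02) and Tbx6 (−2.31 and −2.29) were within 2-fold. The family median lay between 1.54 and 4.17 over the alternatives. Alpha integrins, receptors for matrix, had a median of 0.86 over 10 genes, and 4 were 2-fold higher in esophagus, led by Itga1 (−0.87 and −3.06) and Itga11 (−0.11 and −1.80), both collagen receptors, whereas Itga3, a laminin receptor, was higher in intestine (−0.84 and 0.89). Of 20 cadherins, 9 were 2-fold higher in esophagus and 2 in intestine, the latter Cdh17 and Cdh3 (−2.29 and −0.49). Parp genes, which transfer ADP-ribose, were 2-fold higher in intestine for 5 of 10, Parp1 among them (1.90 and 3.04), with a median of −0.84 that was −0.07 under normexp. Small ribosomal subunit genes (Rps, 31 genes) had a median of 0.57, which was 0.07 under median centring and −0.04 under quantile normalization.

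Probes with no gene name gave other shares than named genes. The units differ, because each unnamed probe was counted singly and a named gene once, by its brightest probe. Of 9349 such probes with a fold, 3016 were at least 2-fold higher in esophagus and 404 in intestine. The excess lay at low levels. At levels up to −2.61, the dimmest of 4 equal groups of the named genes, 42.7% of the 5324 unnamed probes were higher in esophagus and 3.78% in intestine, with a median difference of 0.80, against 22.6% and 13.3% of the named genes there, with a median of −0.01. Above 1.86, in the brightest of these groups, the shares were 8.42% and 3.24% of 772 unnamed probes and 3.83% and 3.62% of the named genes. What these probes measure was not tested.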
